A study of Homo sapiens with 28 samples.

Results

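The genes of the proteasome were followed after induction of the oncogene MYCN in a neuroblastoma cell line. The members are all genes whose platform symbol begins with PSMA to PSMG and a digit, without PSMB8 and PSMB9, each read from its brightest probe set that names a single gene. This gave 48 of the 19775 genes with such a probe set. Of the 48, 40 encode subunits, caps, an inhibitor or assembly factors of the proteasome, and 8 only carry a similar name, being antisense, divergent-transcript or interacting-protein genes. The filter on dim signals was passed by 44 of them, 39 proteasome genes and 5 named like one. PSMA8, a core subunit known from the testis, read 0.3 to 13.1 on every array and was not tested, nor were PSMD14-DT, PSMD7-DT and PSMG3-AS1. PSMA6, PSME2, PSMB11, PSMC5, PSMD7 and PSMD13 have no single-gene probe set and were not analysed here.

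All arrays come from SK-N-AS, an established cell line of human neuroblastoma, a tumour of the sympathetic nervous system. In the MYCN line (SK-N-AS-tet with inducible MYCN), doxycycline switches MYCN on, and 21 arrays cover times labelled 0, 4, 8, 24, 48, 96 and 192, 3 replicates each. The mock line (SKNAS-pcDNA6TR) received doxycycline too and has a single array per time, 7 in all. The labels state no unit of time, do not say how many clones were used, and do not say that replicates were separate cultures, so the spread behind each p-value may be technical. Values are signal intensities of total RNA on single-colour Affymetrix arrays, changes are differences in log2 signal, given with a standard error (SE) where one is shown, and a gene was called where the Benjamini-Hochberg adjusted p of limma over 11865 genes was under 0.05, two-sided.

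The proteasome is the cell's main machine for breaking down proteins tagged with ubiquitin. Its core particle is a barrel of alpha and beta rings, in which 3 kinds of beta subunit cut the substrate. The regulatory particle caps the barrel: its base holds a ring of ATPases that unfold the substrate and receptors that bind ubiquitin, and its lid holds the enzyme that takes the ubiquitin chain off. Dedicated assembly factors build both particles and are not part of the finished machine. When proteasome activity is short, the transcription factor NFE2L1 raises most subunit genes together, and MYC-family factors, which bind the E-box CACGTG, are known to act on many genes of growth and protein turnover.

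Induction was seen in the MYCN probe set itself. MYCN read 3193 ± 112 (SD, n = 3) at time 192 of the MYCN line, against 84.0 ± 17.5 at time 0, and 1.6 to 3.0 on the 7 arrays of the mock line. By cell type markers the 2 lines differ. The 7 noradrenergic markers measured summed to 389.7 to 646.2 on the arrays of the MYCN line and 2013 to 2686 on those of the mock line, led by PHOX2A (1.2 to 15.4 in the MYCN line, 582 to 1133 in the mock line), GATA3 and ISL1, while the noradrenergic enzymes TH and DBH stayed under 10 on every array. The 6 mesenchymal markers summed to 8617 to 11050 in the MYCN line and 6597 to 7808 in the mock line, led by VIM (4772 to 6908 and 4559 to 5331). FN1 averaged 2163 at time 0 of the MYCN line and read 246 to 312 at time 192, against 222 to 373 in the mock line. PRRX1 and SNAI2 were lower at time 0 of the MYCN line, at 861 and 219, against 1080 and 351 in the mock array. CD44 and FOSL1 were higher, at 794 and 239, against 708 and 175. Of 4 epithelial markers, EPCAM, CDH1 and KRT19 did not exceed 9 on any array, but KRT8 read 78.2 to 144 in the MYCN line and 59.7 to 98.9 in the mock line. Of 3 leukocyte markers, CD3E and CD14 did not exceed 15.9, but PTPRC read 1 to 36.2 in the MYCN line and 198 to 262 in the mock line. FN1 and CD44 changed with time in opposite directions (log2 -2.99 and 1.37 at time 192, limma adjusted p = 4.37e-07 and 0.00273), and the part of such differences in cell state, over time or between the lines, in the proteasome values was not tested. The array medians ranged from 12.9 to 20.2. The spiked control bioD read 1544 to 1941 in replicates 1 and 2 and 2322 to 2770 in replicate 3 and the mock line. By this control the mock line groups with replicate 3 alone. The 2 groups are called array sets below, a name and a split that the labels do not give.

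Proteasome genes moved little while MYCN was on. At time 192, 8 of the 39 proteasome genes differed from time 0, 3 higher and 5 lower (10 of the 44 tested members, with PSMC3IP and PSMA3-AS1 also lower), while 25.8% of all genes tested were called, 11.6% higher and 14.1% lower. The share of proteasome genes called is thus near the background. The median change of the 39 was 0.029 on the log2 scale, against -0.028 for all genes tested. The 95% interval of the change lay within 1.5-fold in either direction for 37 of the 39, the exceptions being PSMG1 and PSMG4. The same share over all genes tested is not given here, so whether 37 of 39 is unusual cannot be told. The arrays of time 192 did not overlap those of time 0 for 11 proteasome genes, 4 higher and 7 lower, where 16.5% of all genes tested lay wholly higher and 19.6% wholly lower. SEs ran from 0.0513 to 0.208 with a median of 0.083.

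Over the time course, calls came late and in both directions. At time 4 no member was called by limma (2 proteasome genes had an unadjusted p under 0.05), and 0.00843% of all genes were, namely MYCN alone. At time 8 the only called member was PSMG1, higher, with 0.767% of all genes called (0.59% higher). At time 24, PSMG1 and PSMG4 were higher and PSMA3-AS1 lower (7.18% of all genes, 3.91% higher and 3.27% lower). At time 48, 6 proteasome genes were higher and none lower, while PSMC3IP and PSMA3-AS1 were lower (14.7% of all genes, 7.04% higher and 7.67% lower). At time 96, 5 proteasome genes were higher and 6 lower, with PSMC3IP and PSMA3-AS1 again lower (23.4% of all genes, 10.3% higher and 13.2% lower). Counted over the 6 times, 15 of the 39 were called at least once, 6 of the core particle, 4 of the regulatory particle, 3 assembly factors and 2 caps, and 24 were never called. Of all genes tested, 32.6% were called at any of these times. All 6 comparisons share the time 0 arrays. The moderated F-test over the 6 times called 13 members (11 proteasome genes), against 25.4% of all genes. Between time 192 and time 48, 0 members were called by limma (10 had an unadjusted p under 0.05), against 0.767% of all genes.

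These counts depend on single replicates and on the scaling. At time 192 the count of 10 members fell to 1 without replicate 1 (PSMG1) and to 3 without replicate 2 (PSMG1, PSMB4, PSMC3IP), while all genes called fell to 13% and 11.2%. With array medians made equal it was 2 (PSMG1 and PSMG4), with 15.9% of all genes called. Blocking on the replicate number, 14 members were called at time 192, 6 higher and 8 lower, with 35.1% of all genes called, and PSMA5, PSMB2 and PSMB3, higher, and PSMB8-AS1, lower, joined the 10.

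**Figure D1:**
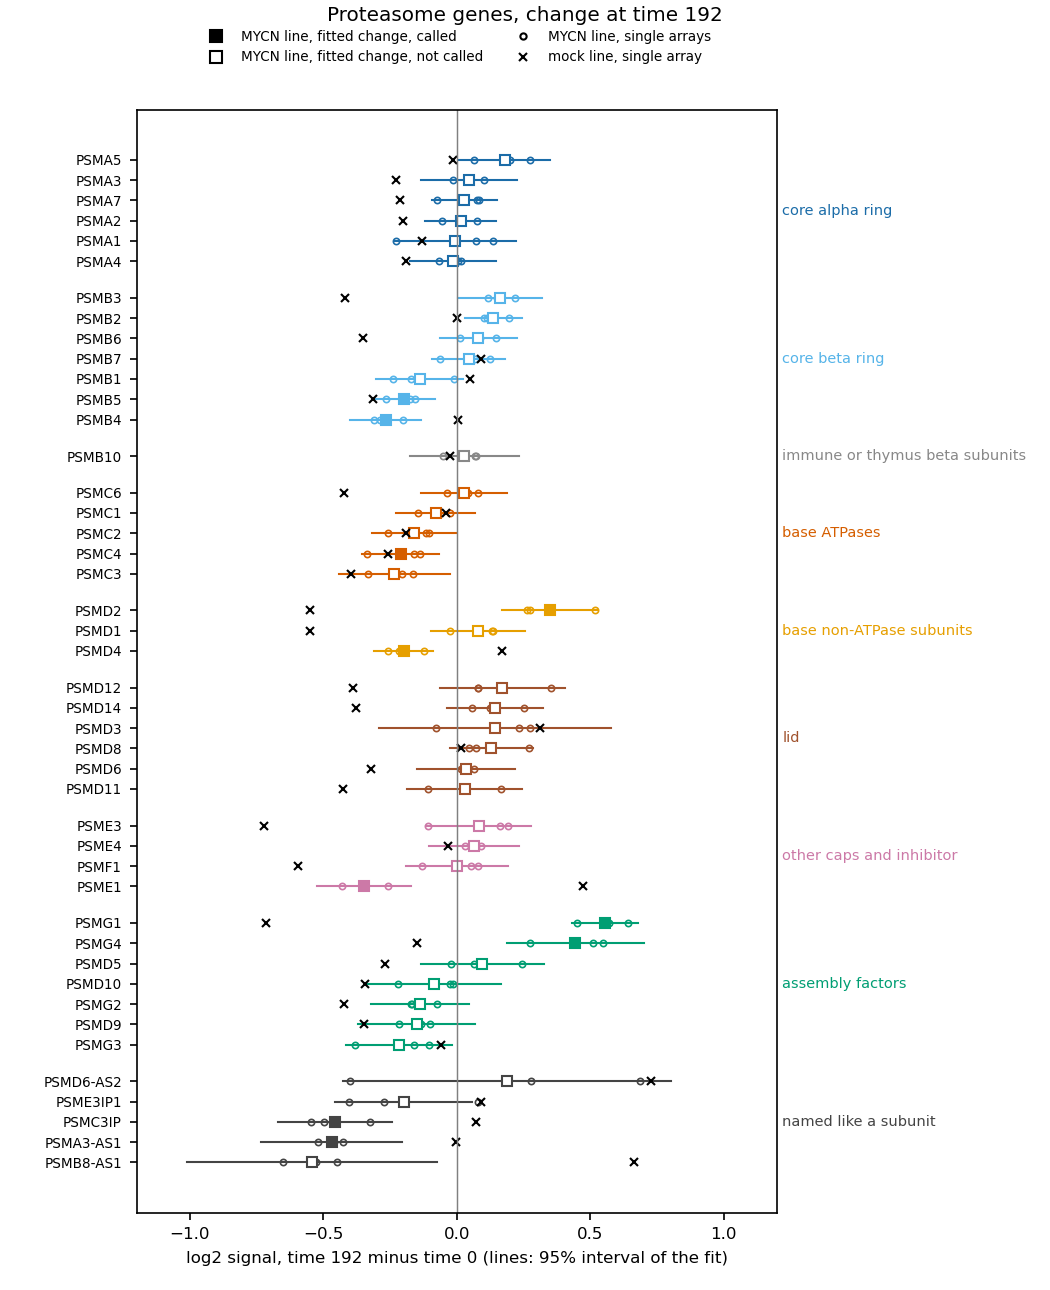
Log2 change in signal at time 192 against time 0 for the 44 tested members, grouped by role. Squares give the fitted change in the MYCN line (filled where called) with the line its 95% interval, circles its 3 arrays, and crosses the single mock array. Most squares lie close to 0, PSMG1 and PSMG4 stand highest, and 31 of the 39 proteasome genes have their mock cross below 0.

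Upstream sequences are shown for the members with the largest called changes among assembly factors, regulatory particle and caps (PSMG1, PSMD2, PSME1) and for the 3 members whose window holds an E-box (PSMB3, PSME3, PSMD9). Each line gives the 250 bases before the RefSeq start of the gene (GRCh38.p14), 5′ to 3′ in the direction of transcription, with capitals for matches on either strand to the E-box CACGTG, the box CCAAT and the NFE2L1-type letters TGACNNNGC. Adjacent capitals can join 2 motifs.
PSMG1 (chr21:39183452-39183701, minus strand): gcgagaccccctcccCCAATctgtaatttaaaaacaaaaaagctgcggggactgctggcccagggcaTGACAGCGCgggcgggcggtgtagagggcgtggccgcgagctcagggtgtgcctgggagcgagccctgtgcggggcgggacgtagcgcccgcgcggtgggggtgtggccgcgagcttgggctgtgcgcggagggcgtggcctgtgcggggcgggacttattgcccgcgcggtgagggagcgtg
PSMD2 (chr3:184298991-184299240, plus strand): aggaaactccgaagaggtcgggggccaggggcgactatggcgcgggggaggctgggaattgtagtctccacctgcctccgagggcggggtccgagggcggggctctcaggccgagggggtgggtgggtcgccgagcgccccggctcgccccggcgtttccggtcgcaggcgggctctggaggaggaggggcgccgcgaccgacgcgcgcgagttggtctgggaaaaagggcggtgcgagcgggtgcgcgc
PSME1 (chr14:24135944-24136193, plus strand): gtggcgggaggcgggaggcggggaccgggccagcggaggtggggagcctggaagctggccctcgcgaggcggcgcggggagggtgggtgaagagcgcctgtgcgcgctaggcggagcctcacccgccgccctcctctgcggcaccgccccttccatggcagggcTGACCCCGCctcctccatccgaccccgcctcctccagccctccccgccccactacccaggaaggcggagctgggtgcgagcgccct
PSMB3 (chr17:38752491-38752740, plus strand): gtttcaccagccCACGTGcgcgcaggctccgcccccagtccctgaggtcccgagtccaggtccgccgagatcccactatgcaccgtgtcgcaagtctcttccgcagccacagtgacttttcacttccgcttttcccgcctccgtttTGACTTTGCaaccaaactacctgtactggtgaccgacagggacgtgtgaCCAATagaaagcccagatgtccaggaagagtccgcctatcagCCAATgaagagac
PSME3 (chr17:42833147-42833396, plus strand): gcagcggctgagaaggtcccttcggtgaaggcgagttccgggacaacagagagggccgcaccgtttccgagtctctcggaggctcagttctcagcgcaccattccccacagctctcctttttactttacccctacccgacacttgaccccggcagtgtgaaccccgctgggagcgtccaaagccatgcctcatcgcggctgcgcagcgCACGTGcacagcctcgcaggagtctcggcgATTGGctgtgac
PSMD9 (chr12:121888540-121888789, plus strand): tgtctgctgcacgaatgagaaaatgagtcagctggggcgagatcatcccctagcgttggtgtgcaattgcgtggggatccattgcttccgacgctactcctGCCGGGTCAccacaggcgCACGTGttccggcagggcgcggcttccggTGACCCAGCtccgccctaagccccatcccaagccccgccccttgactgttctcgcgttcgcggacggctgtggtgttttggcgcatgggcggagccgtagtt

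Of the 40 proteasome genes, 34 matched a RefSeq promoter window of 250 bases before and 50 after the start. An E-box was in 3 of the 34 windows (8.82%), against 7.43% of 27305 windows of the same length, and its first base lay at -238 in PSMB3, -42 in PSME3 and -131 in PSMD9. A CCAAT box was in 15 (44.1%), against 35.7% of all windows, and the NFE2L1-type letters were in 11 (32.4%), against 13.6%. Of the 3 with an E-box, PSMB3 and PSME3 were among the 6 called higher at time 48, while PSMD9 was called at no time. These 2 calls held under 6 of 20 alternatives (PSMB3) and 7 of 19 (PSME3), and a link between motif and change was not tested. PSMG1, the member with the largest change at time 192, holds a CCAAT box at -235 and the NFE2L1-type letters at -183, PSME1 holds the NFE2L1-type letters at -86, and none of the 3 motifs is among the printed letters of PSMD2. A match describes letters, not a bound site.

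PSMG1 changed most of all members at time 192. It encodes the assembly factor that, paired with PSMG2, builds the alpha ring. In the MYCN line PSMG1 read 2426, 2548 and 2228 at time 192, against 1706, 1553 and 1638 at time 0. All 3 late arrays lay above all 3 early ones, and the arrays of times 8, 24, 48 and 96, at 1892 to 2295, were above them too. The change was 0.27 at time 8 (limma adjusted p = 0.0409), 0.34, 0.32 and 0.46 over times 24, 48 and 96, and reached 0.56 ± 0.06 (SE, adjusted p = 2.52e-06, 1.47-fold) at time 192. It passed the threshold at time 192 under all 19 alternatives run on it, with adjusted p between 5.25e-07 and 0.00617, whereas at time 8 it did so under 6 of 20. In the mock line PSMG1 read 781, 821, 848, 763, 755, 771 and 476 over the 7 times, below every array of the MYCN line already at time 0, and lowest in the last array.

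PSMG4, which pairs with PSMG3 in the same step of alpha-ring assembly, rose with a wider scatter. PSMG4 read 783, 763 and 648 at time 192, against 573, 513 and 524 at time 0, so that the groups did not overlap. It peaked at time 48, at 738, 932 and 718 (log2 0.56 ± 0.12, limma adjusted p = 0.00443), and stood at 0.44 ± 0.12 at time 192 (adjusted p = 0.0113, 1.36-fold). These values come from the brightest probe set of 5. Of the other 4, the 1 just above the filter gave 0.32 at time 192. The 3 below the filter gave 0.32, -0.64 and -2.23, and the mean of all 5 was -0.36. The partner PSMG3 moved the other way, with 372, 333 and 326 at time 96, against 475, 401 and 493 at time 0 (-0.41 ± 0.10, adjusted p = 0.00424), but was not called at time 192 (-0.22, adjusted p = 0.104).

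The other assembly factors gave no call at any time. PSMG2, the partner of PSMG1, read 1282, 1367 and 1280 at time 192, against 1645, 1399 and 1300 at time 0, overlapping groups (-0.14, limma adjusted p = 0.273). PSMD5, PSMD9 and PSMD10, which help to put the ATPase ring together, differed by 0.10, -0.15 and -0.09. The 7 tested assembly factors thus held 2 called higher and none lower at time 192, with a median change of -0.09.

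**Figure D2:**
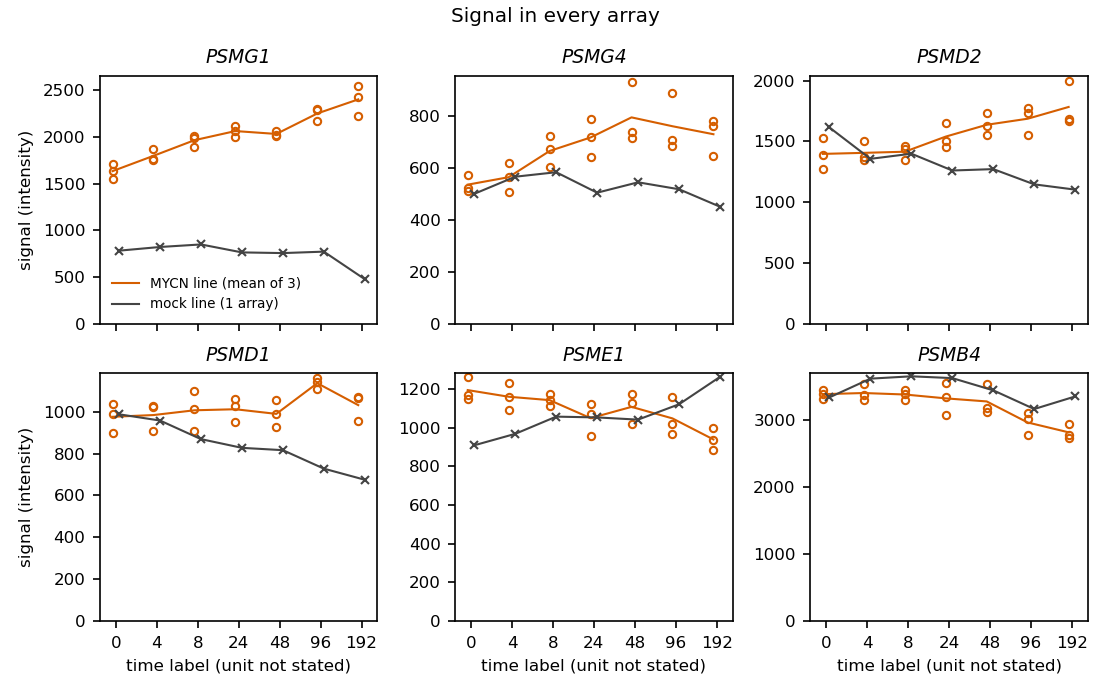
Signal intensity against time label for 6 proteasome genes, with circles for the 3 arrays of the MYCN line at each time, a line through their mean, and crosses joined by a line for the single mock array. PSMG1, PSMG4 and PSMD2 are higher at the late times of the MYCN line, PSME1 and PSMB4 lower. PSMD1 declines in the mock line, while its MYCN-line arrays lie above those of time 0 at time 96 and overlap them at time 192.

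The alpha ring forms the gate of the barrel. None of its 6 tested genes was called at time 192, where changes ran from -0.01 (PSMA4) to 0.18 (PSMA5). PSMA5 read 1320, 1252 and 1140 at time 192, against 1174, 1078 and 1024 at time 0, overlapping groups (log2 0.18 ± 0.08, limma adjusted p = 0.114). It was called earlier, with 1485, 1364 and 1206 at time 48 (0.31 ± 0.08, adjusted p = 0.0161) and 1307, 1342 and 1395 at time 96 (0.31, adjusted p = 0.01), all above the time 0 arrays. PSMA5's other probe set, far dimmer, changed by -0.37 at time 192. PSMA2 was called at time 96 alone, with 2803, 3001 and 2988 against 2518, 2404 and 2549 at time 0 (0.23, adjusted p = 0.0112), and stood at 0.01 at time 192; its probe set outside the shared _s_at and _x_at designs gave -0.16 at time 96. PSMA1, PSMA3, PSMA4 and PSMA7 were called at no time.

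The beta ring split by gene. PSMB4, a subunit without cutting activity, read 2736, 2773 and 2946 at time 192, against 3457, 3321 and 3385 at time 0, so every late array lay below every early one. The fall was -0.27 ± 0.06 on the log2 scale (limma adjusted p = 0.00422), while of its other probe sets a bright one gave -0.31 and a far dimmer one 0.20. PSMB5, the chymotrypsin-like subunit and target of the drug bortezomib, read 1758, 1779 and 1650 at time 192, against 2020, 1934 and 1997 at time 0 (-0.20 ± 0.06, adjusted p = 0.0134). Both were also lower at time 96 (-0.19 each, adjusted p = 0.0329 and 0.0206).

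Higher values in the beta ring came at time 48. PSMB2, another non-cutting subunit, read 2795, 2728 and 2721 at time 48, against 2445, 2425 and 2333 at time 0 (log2 0.20, limma adjusted p = 0.0148), whereas the mean over its 4 probe sets, the others all dimmer, was -0.07. At time 192 its arrays still lay above those of time 0, but the call was lost (0.14, adjusted p = 0.0562). PSMB3, one of the E-box genes printed above, read 3071, 2841 and 2730 at time 48, against 2701, 2468 and 2233 at time 0 (0.23, adjusted p = 0.0492). That call held under 6 of its 20 alternatives, and 0.16 remained at time 192 (adjusted p = 0.126). The cutting subunits PSMB6 (caspase-like) and PSMB7 (trypsin-like) and the non-cutting PSMB1 were called at no time against time 0, with 0.08, 0.04 and -0.14 at time 192. PSMB10, the immune counterpart of the trypsin-like subunit, read 280, 280 and 257 at time 192, against 272, 232 and 301 at time 0 (0.03, adjusted p = 0.867).

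In the regulatory base, PSMD2 was higher and PSMD4 and PSMC4 lower. PSMD2, a scaffold of the base that binds ubiquitin-like proteins, read 1993, 1670 and 1685 at time 192, against 1391, 1272 and 1526 at time 0. The groups did not overlap, and the change was 0.35 ± 0.09 (limma adjusted p = 0.00507, 1.28-fold), the largest among the 27 tested core and regulatory particle genes. It was also called at time 96 (0.27, adjusted p = 0.0267). PSMD4, a ubiquitin receptor, read 1959, 2016 and 2150 at time 192, against 2250, 2360 and 2420 at time 0 (-0.20 ± 0.05, adjusted p = 0.00913), and 2 further probe sets gave -0.19 and -0.20, though with a further one, below the filter, the mean of all was 0.04. PSMD1, the second scaffold, read 1070, 1067 and 957, against 1038, 988 and 900, overlapping groups (0.08, adjusted p = 0.533). At time 96 PSMD1 read 1141, 1108 and 1159, all above the time 0 arrays, but was not called.

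Of the 5 tested ATPases, 1 was called at time 192. PSMC4 read 1058, 1042 and 922 at time 192, against 1186, 1095 and 1211 at time 0 (log2 -0.21 ± 0.07, limma adjusted p = 0.0295), a call that held under 10 of its 19 alternatives, and the change was -0.12 without replicate 3 (adjusted p = 0.331). PSMC3 read 1629, 1257 and 1171 at time 96, against 1578, 1544 and 1849 at time 0, overlapping groups. It was called lower at time 96 (-0.30, limma adjusted p = 0.0332), a call that held under 10 of its 19 alternatives. Without replicate 3 that change was -0.125 (adjusted p = 0.41). At time 192 PSMC3 stood at -0.23 (adjusted p = 0.0931). The arrays of PSMC2 at time 192, 2083, 2067 and 1872, lay below those of time 0, 2249, 2157 and 2312, and its F-test was called (adjusted p = 0.022), but no single time was (-0.16 at time 192). PSMC1 and PSMC6 were called at no time, at -0.08 and 0.03. The median over the 5 ATPases was -0.16 at time 192, against -0.028 for all genes tested.

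None of the 6 tested lid genes was called at any time against time 0. All 6 changes at time 192 were positive, from 0.03 (PSMD11) to 0.17 (PSMD12), with a median of 0.14, where 5562 of 11865 genes tested were positive. The sign of PSMD11 depends on the probe set: its other, dimmer one gave -0.29, and the mean over both was -0.13. PSMD14, the enzyme that removes ubiquitin chains, read 1762, 1613 and 1539 at time 192, against 1586, 1539 and 1329 at time 0 (log2 0.14 ± 0.09, limma adjusted p = 0.244). PSMD12 read 1822, 1509 and 1506, against 1555, 1324 and 1409 (0.17, adjusted p = 0.285). In both genes replicate 1 was the highest array at both times, and the groups overlapped. PSMD3 had the widest scatter, at 748, 771 and 605 against 796, 705 and 461 (SE 0.21).

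The alternative caps went different ways. PSME1, a subunit of the interferon-inducible activator cap, read 885, 997 and 933 at time 192, against 1169, 1261 and 1150 at time 0. Every late array lay below every early one (log2 -0.35 ± 0.08, limma adjusted p = 0.00438). PSME3, which forms the related nuclear activator, was called at time 48, with 1689, 1709 and 1496 against 1307, 1331 and 1360 at time 0 (0.29 ± 0.09, adjusted p = 0.0438). The PSME3 call held under 7 of its 19 alternatives. At time 192 its arrays spread over 1491, 1522 and 1237 and overlapped those of time 0 (0.08). PSME4, a nuclear activator, and PSMF1, an inhibitor, differed by 0.06 and 0.00 at time 192 and were called at no time.

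Of the genes that only share the name, the 2 called ones were lower. PSMC3IP, a partner of the meiotic recombination machinery, read 196, 203 and 229 at time 192, against 271, 270 and 324 at time 0 (log2 -0.46 ± 0.10, limma adjusted p = 0.0026). PSMA3-AS1, an antisense transcript, read 118, 124 and 127, against 182, 154 and 175 (-0.47 ± 0.13, adjusted p = 0.00982), and was lowest at time 96 (-0.73). These arrays do not settle whether an antisense probe set also takes up its partner; PSMA3 itself differed by 0.04. PSMB8-AS1, PSMD6-AS2 and PSME3IP1 were called at no time.

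In the MYCN line the core and regulatory medians lay close together. At time 192 the median change was 0.028 over 13 core genes and 0.032 over 14 regulatory genes, a difference of -0.004. Taken array by array, the core median minus the regulatory median was 0.014 ± 0.035 at time 192 (SD, n = 3), with a range over the other times of -0.019 ± 0.080 at time 0 to 0.050 ± 0.047 at time 24. The core held 3 called higher at time 48, 2 higher and 2 lower at time 96, and 2 lower at time 192, where the replicate block added PSMA5, PSMB2 and PSMB3 as higher. The regulatory particle held 0 called at time 48 by limma (3 had an unadjusted p under 0.05), 1 higher and 3 lower at time 96, and 1 higher and 2 lower at time 192. In the mock line the core median stood above the regulatory median at each time after 0, by 0.02, 0.07, 0.15, 0.14, 0.11 and 0.16 over times 4, 8, 24, 48, 96 and 192, but each is a single array and was not tested.

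**Figure D3:**
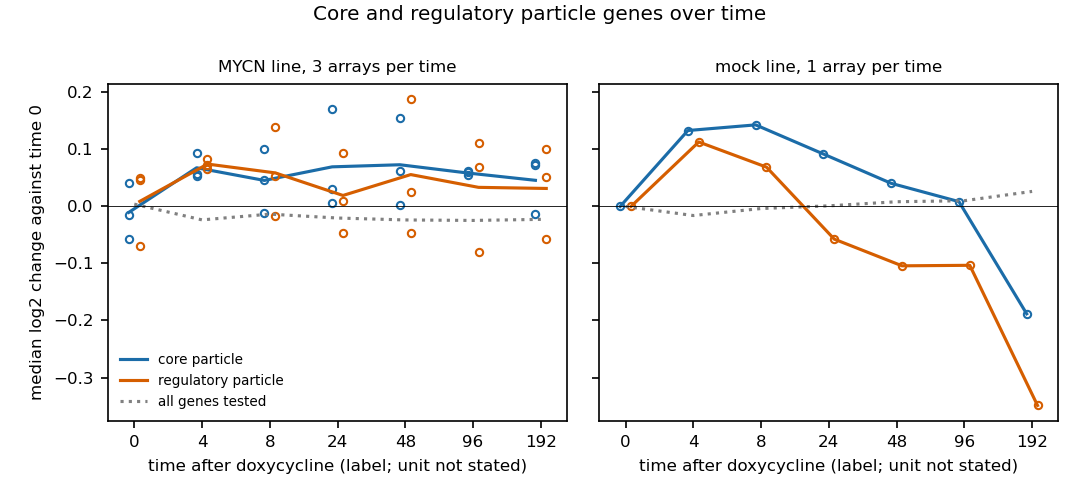
Median log2 change against time 0 over the core particle genes, the regulatory particle genes and all genes tested, plotted over the time label in the MYCN line (left, circles for arrays and lines for their mean) and the mock line (right, 1 array per time). Core and regulatory medians overlap in the MYCN line, while both fall below 0 in the last mock array, to -0.188 and -0.349.

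Proteasome signals were mostly lower at the end of the mock series. At time 192 the mock array lay below the mock time 0 array for 31 of the 39 proteasome genes, with a median of -0.23, while all genes tested had a median of 0.03. This is a single array, and its median signal of 20.2 was the highest of the series, against 16.9 to 18.3 on the other mock arrays. At time 96 the mock median over the 39 was -0.06. At time 4 both lines stood slightly above their time 0, with a median over the 39 of 0.09 (MYCN line) and 0.10 (mock line). A linear trend over the time steps of the mock line was called for 4 members, all lower, against 3.13% of all genes, 1.52% lower. They were PSMD1, PSMD2, PSMD11 and PSME3, at -0.09, -0.08, -0.08 and -0.10 per step (limma adjusted p = 0.024, 0.0333, 0.0364 and 0.044). PSMD1, for example, read 987, 958, 869, 827, 816, 728 and 675 in the mock line, a fall at every time. The count rests on few arrays: it was 0 without the mock array of time 4, 8 or 192, 1 without that of time 24 or 48, 2 without that of time 96, and 10 without that of time 0. The shares of all genes called were then 0%, 0.455% and 0.784% (without time 4, 8 and 192) and 1.15% and 1.76% (without time 24 and 48). They were 3.21% without time 96 and 7.95% without time 0.

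The lines differed in trend for 16 of the 44 members, 12 more positive in the MYCN line and 4 more negative, against 24% of all genes tested, 11.2% and 12.8%. The proteasome genes among them were 14 of 39, 12 more positive and 2 more negative. By particle they were 2 of 13 core genes, both more positive (PSMB3 and PSMB6), and 7 of 14 regulatory genes, 6 more positive (PSMC6, PSMD1, PSMD2, PSMD11, PSMD12, PSMD14) and 1 more negative (PSMD4). The largest were PSMG1 at 0.17 ± 0.03 per step (limma adjusted p = 2e-05), PSMD2 at 0.14 ± 0.02 (adjusted p = 1.43e-05) and, below 0, PSME1 at -0.11 ± 0.02 (adjusted p = 0.000242). PSMG1 and PSMD2 rose in the MYCN line and fell in the mock array at time 192. PSME1 did the reverse, with mock readings of 908, 967, 1056, 1052, 1041, 1120 and 1262 over the 7 times. The test fits a straight line over the steps, and it did not call MYCN itself (0.59 per step, limma adjusted p = 0.112).

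The signs of PSMG4 and PSMD11 rest on shared-sequence probe sets (_s_at or _x_at), and without these the differences were -0.36 (limma adjusted p = 0.00166) and -0.06 per step. Several of the 16 moved mainly in the mock line. Fitted over the 6 steps, PSMD1 changed by 0.14 (MYCN line) and -0.54 (mock line), PSMD11 by -0.03 and -0.46, PSMF1 by 0.00 and -0.47, and PSME3 by 0.06 and -0.63. Without the mock array of time 192 the count was 5, with 10.9% of all genes called: PSMG1, PSMD1, PSMD2 and PSME1 remained (0.10, 0.11, 0.15 and -0.10 per step) and PSMD8 joined them. Within the array set that the mock line shares with replicate 3, 7 of the 16 were called, with 16.5% of all genes called. The 7 were PSMG1, PSMB3, PSMD1, PSMD2, PSMD11, PSMD12 and PSME1, and all 16 kept their sign. Without replicate 2 the count was 10, with 17.4% of all genes called. With equal array medians it was 9, all more positive, with 17.7% of all genes called. PSME1 was then no longer called (-0.08, limma adjusted p = 0.0755). Under this scaling the mock median of all genes at time 192 was -0.12.

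**Figure D4:**
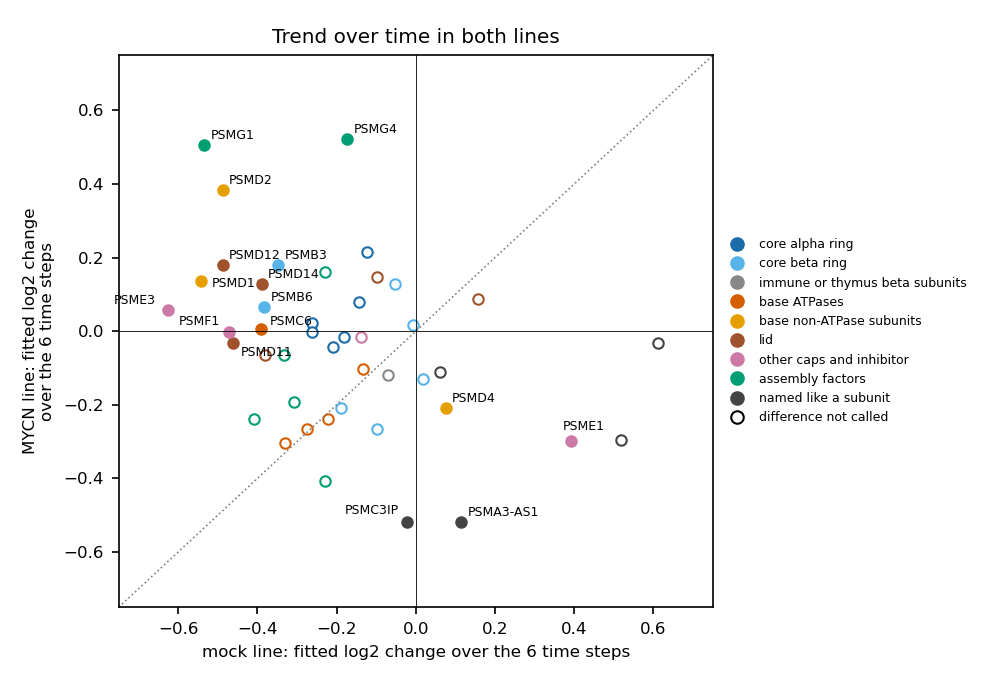
Fitted log2 change over the 6 time steps in the MYCN line (vertical) against the mock line (horizontal) for the 44 tested members, coloured by role and filled where the difference in trend was called. The dotted line marks equal trends, and 12 filled points lie above it and 4 below, with PSMG1 and PSMD2 farthest above and PSME1 below.

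Genes that work with the proteasome or feed it were counted beside the members. Of 19 tested partners (cofactors, assembly and delivery proteins, with PSMB8 and PSMB9), 3 were called higher and none lower at time 192, where 25.8% of all genes tested were called and 11.6% were called higher. They were ECPAS, which binds the proteasome as an adaptor, at 0.38 (limma adjusted p = 0.00479), the deubiquitinase USP14 at 0.19 (adjusted p = 0.0163) and TXNL1 at 0.22 (adjusted p = 0.0314). All 3 lost the call without replicate 1 (adjusted p = 0.0565, 0.128 and 0.117), and the mean over all probe sets of TXNL1 was -0.06. USP14 read 1819, 1800 and 1762 at time 192, against 1623, 1561 and 1526 at time 0, and 931 in the last mock array. The interferon-inducible core subunits PSMB8 and PSMB9 were not called at time 192 (-0.22 and -0.14, adjusted p = 0.0976 and 0.431). Their trends were more negative in the MYCN line than in the mock line (-0.07 and -0.09 per step, adjusted p = 0.0315 and 0.0322), the direction of PSME1. PSMB10, the immune subunit among the members, stood at -0.008 per step and was not called. In the mock line PSMB8 read 364.5 to 378.8 up to time 96 and 450.2 at time 192. PSMB9 there read 371.2 to 448.5 and then 552.7, and neither trend was tested without that last array.

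Of 12 tested genes of ubiquitin supply and the NFE2L1 route, 3 were called higher and none lower at time 192. Of all genes tested, 25.8% were called then and 11.6% were called higher. SQSTM1, a receptor that brings ubiquitin-tagged cargo to autophagy, read 2318, 1690 and 1556 at time 192, against 1108, 952 and 1050 at time 0, and rose by 0.82 ± 0.16 on the log2 scale (limma adjusted p = 0.000965, 1.77-fold). HERPUD1, of protein disposal at the endoplasmic reticulum, read 1044, 646 and 592 at time 192, against 573, 524 and 423 at time 0 (0.55, adjusted p = 0.0219). Its replicate 1 array of time 192 stands apart, without which the change was 0.30 (adjusted p = 0.165), and its F-test was not called (adjusted p = 0.0624). NGLY1, which processes NFE2L1, was called at 0.54 (adjusted p = 0.0267), but stood at 0.35 without replicate 1 (adjusted p = 0.377). NFE2L1 itself differed by -0.10 (adjusted p = 0.491). For the core and regulatory particle genes taken as a mean profile over the 7 times of the MYCN line, the 5 most similar genes among 2998 called by the F-test were FHIP2A, UCP2, NSDHL, COG2 and CCDC146, with Pearson correlations of 0.778, 0.756, 0.753, 0.742 and 0.741 over 7 times from the same arrays, given as a description. The mean profile is nearly flat, from -0.042 at time 0 to 0.034 at time 48 (log2, centred). These correlations are the highest of 2998, so they do not show that the 5 genes follow the proteasome.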

How the data were processed

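Each probe set has 1 deposited intensity per array, not on a log scale. MAS5 and GCOS, which condense the probes of a set into 1 signal and scale whole arrays, are the tools in the submitters' processing notes, with no version in the sources used here. In the deposited table the mean after trimming 2% at either end was 100.01 on every array. The 54675 probe sets were named by the platform annotation: 41097 have 1 gene, 1801 several and 11777 none. From the deposited intensity the log2 was taken, with 91 values at or under 0 set to 0.1. Each gene was represented by its brightest single-gene probe set, and probe sets of a gene that disagree enter through the alternatives. Of the 27 members with more than 1 probe set, 37 further probe sets passed the filter and 26 of them had the sign of the brightest at time 192. Genes from the 40th percentile of mean log2 signal upward (3.68, a signal of 12.8) were tested.

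R 4.3.3 and limma 3.58.1 (eBayes with trend) were used, checked on simulated data. The MYCN line's 21 arrays entered a single fit with 14 residual degrees of freedom. The mock trend used the time step, 0 to 6, over 7 arrays (5), and the line-by-step interaction over 28 arrays gave the difference in trend (24). Calls were at an adjusted p under 0.05, two-sided. All members may be named, with full statistics for those called at time 192, by the F-test or by the difference in trend, and for the extremes of each role. Members, lists and tests were chosen with earlier results of these data known. Alternatives covered normalization, probe sets, filter, pseudocount 16, array set, replicate block and left-out arrays.

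Pairing by replicate number was checked by correlating each array's deviations from its group mean with those of the same-numbered array of time 0. For replicates 1, 2 and 3 the correlations were 0.200, 0.188 and 0.323 (time 4), 0.241, 0.246 and 0.367 (time 8) and 0.149, 0.129 and 0.226 (time 192), but replicate 2 gave -0.0608, 0.0549 and -0.0248 at times 24, 48 and 96. By this check alone, pairing would be accepted for times 4, 8 and 192 only. The check cannot settle pairing, since a steady offset of replicate 3, which forms its own array set, would also raise these correlations. The main fits used no pairing, and the replicate block is given as an alternative. The number of arrays limits the precision.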

Additional observations from a re-analysis of the deposited data

Results flagged for a closer look

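Of the 44 members tested, 16 had a trend over the time steps that differed between the MYCN line and the mock line by the limma interaction test (adjusted p under 0.05 over all genes), where 24% of all genes tested did. The differences, in log2 per step and as MYCN line minus mock line, were positive for 12 members. Among assembly factors these were PSMG1 at 0.173 and PSMG4 at 0.116. Among core particle genes they were PSMB3 at 0.088 and PSMB6 at 0.075. Regulatory particle genes gave PSMD2 at 0.145, PSMD1 at 0.113, PSMD12 at 0.111, PSMD14 at 0.086, PSMD11 at 0.071 and PSMC6 at 0.066. The nuclear activator PSME3 stood at 0.114 and the inhibitor PSMF1 at 0.079. The 4 negative ones were the activator subunit PSME1 at -0.115, the ubiquitin receptor PSMD4 at -0.048, PSMA3-AS1 at -0.106 and PSMC3IP at -0.083. The mock line has 1 array per time. Of the 16, PSMG1, PSMD1, PSMD2 and PSME1 were called without its last array.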

How the results depend on the processing

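Of 240 counts and medians recomputed under alternatives, 168 stayed within 1.5 times (counts) or 1 SD (medians), and 72 moved. The cause of the moves was not tested, save that fits with fewer arrays have fewer degrees of freedom. Counts of members called are given below as time against time 0, and a percentage in brackets is the share of all genes called. With equal array medians they were 0 at times 8 and 24 (0.0843% and 2.48%), 1 at time 48 (6.92%), 3 at time 96 (13.2%) and 2 at time 192 (15.9%). The F-test then called 2 (13.7%), the difference in trend 9 (17.7%) and the mock trend 2 (1.85%). With the mean of all probe sets they were 0 at time 8 (0.346%), 1 at time 24 (4.37%), 2 at time 48 (9.48%) and 1 for the mock trend (0.944%). The core minus regulatory median was then -0.0485. Without _s_at and _x_at probe sets they were 3 at time 48 (10.8%), 7 for the difference in trend (18.3%) and 1 for the mock trend (2.29%). Without the filter they were 0 at time 8 (0.288%) and 1 for the mock trend (0.779%). Quantile normalization gave 1 at time 192 against time 48 (0.902%) and a core minus regulatory median of 0.033. With only the arrays of both times they were 0 at time 8 (0.0253%), 1 at time 48 (4.58%) and 6 at time 96 (15.7%). On log2(time + 1) the mock trend called 1 (0.7%).

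The array set as a block gave 5 at time 24 (13.5%), 2 at time 192 against time 48 (3.46%) and 20 by the F-test (37.9%). Within replicates 1 and 2 there were 0 at time 8 (0.177%), 1 at time 24 (5.53%) and 7 by the F-test (24.9%). Within replicate 3 and the mock line there were 7 for the difference in trend (16.5%). With the replicate block, members called were 7 at time 24 (14.9%), 14 at time 192 (35.1%) and 2 at time 192 against time 48 (PSMB4 and PSMG1, 4.47%). They were 22 by the F-test (40.5%) and 18 for the difference in trend (29.2%). The block left all 10 calls of time 192 and all 16 of the difference in trend in place.

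Leaving out 1 replicate or array gave ranges of 0 to 0 at time 4 and at time 8, 0 to 3 at time 24, 0 to 9 at time 48, 4 to 12 at time 96, 1 to 11 at time 192, 0 to 1 at time 192 against time 48, 1 to 7 by the F-test, 5 to 19 for the difference in trend and 0 to 10 for the mock trend. The shares of all genes called ranged as widely. They were 1.38% to 6.12% at time 24, 2.03% to 18.9% at time 48, 6.63% to 23.5% at time 96 and 11.2% to 25% at time 192. The F-test called 5.79% to 24.9%, the difference in trend 10.9% to 27.7% and the mock trend 0% to 7.95%. The core median at time 192 ranged from -0.0067 to 0.073, the regulatory median from -0.0146 to 0.0951 and their difference from -0.037 to 0.0143.

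Signs turned for 35 of 1444 single-gene values. With the mean of all probe sets these were PSMA5 (-0.093), PSMD11 (-0.13), PSMD4 (0.04), PSMG4 (-0.358) and the partner TXNL1 (-0.058) at time 192, PSMB2 at time 48 (-0.074), PSMA5 (-0.051) and PSMD4 (0.34) at time 96, and PSMG4 in the difference in trend (-0.207). Without _s_at and _x_at probe sets they were PSMD11 (-0.29) and PSMF1 (-0.084) at time 192, PSMB2 at time 48 (-0.075), PSMA2 at time 96 (-0.164), and PSMD11 (-0.06) and PSMG4 (-0.364) in the difference in trend. The rest concern changes at time 192 that were not called. Under quantile normalization PSMC6 was -0.001 and PSMF1 -0.016, with equal array medians PSMA4 was 0.013, and within replicates 1 and 2, or without replicate 3, PSMD6-AS2 was -0.155. Leaving out 1 replicate or array, PSMF1 ranged from -0.079 to 0.112, PSMA4 from -0.058 to 0.028, PSMD11 from -0.053 to 0.12, PSMB10 from -0.091 to 0.157, PSMC6 from -0.026 to 0.093 and PSMD6-AS2 from -0.155 to 0.482. The alternatives for single genes at times 8 to 96 and in the difference in trend, and for partner and ubiquitin supply genes, were chosen after seeing the data. A further 306 values lost their call and 12 gained one.

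Precision is limited by 3 arrays per time and 1 per mock time, and by MAS5 signals that scatter widely when dim.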
